A study of Mus musculus with 24 samples.

Results

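The activity-induced immediate early genes Fos, Fosb, Junb, Arc, Egr1, Egr3, Nr4a1, Npas4, Bdnf and Homer1 were followed, 10 of the 33902 gene symbols of a single-nucleus RNA sequencing (snRNA-seq) table. The 10 genes were taken by name and not by a measured value, but the group and the gene lists used beside it were chosen with earlier results of these data known. The tissue was ventral hippocampus, taken from adult males 10 to 16 weeks old of the inbred mouse strains C57BL/6J (B6) and DBA/2J (D2). No treatment or genetic change was applied, and the strains were compared without an applied stimulus. The study's methods give isoflurane and decapitation, then dissection and freezing of the tissue. The part of this handling in the levels was not tested. Each assay had 2 libraries per strain, and each library combined tissue from about 2 animals, so a library is not 1 animal. Nuclei for snRNA-seq were sorted on NeuN, a protein of neuronal nuclei, to a mixture weighted towards neurons, and nuclei for single-nucleus ATAC sequencing (snATAC-seq, which reads open chromatin) were not.

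Immediate early genes are transcribed within minutes of strong synaptic input, without the need for new protein. Calcium and kinase signals reach factors that already sit on their promoters, such as CREB at the cAMP response element and SRF at the CArG box, and the first products are themselves transcription factors or act at the synapse. In the granule neurons of the dentate gyrus, which fire sparsely, these genes are widely used as marks of recently active cells.

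The values are counts that the authors summed over the nuclei of the excitatory dentate gyrus cell type, Exc-DG. The B6 libraries held 1489 and 1336 Exc-DG nuclei with 10456569 and 11352265 RNA counts, and the D2 libraries held 1233 and 1043 nuclei with 9007032 and 7895793 counts. Libraries are named 2 and 3 as in the tables, which give the strain of a column but do not tie it to 1 of the samples, labelled 1 and 2. Other cell types were not used here. Levels are given as CPM, the count scaled to a common library total after TMM normalization (per 1e6 counts), and in sums over nuclei a change in the number of active nuclei and a change in RNA per nucleus cannot be told apart. The strain difference, D2 minus B6, was tested with edgeR (quasi-likelihood) over the 17723 symbols that passed the filter on low counts.

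Markers of the label were present in Exc-DG, beside some markers listed for other cell types. The excitatory transporter gene Slc17a7 was between 295 and 337 CPM in the 4 libraries, and the dentate factor gene Prox1 was at 301 and 320 CPM in B6 and 238 and 239 CPM in D2. Of 44 markers of 15 lists, 38 were tested, 4 were higher in D2 and 10 were lower, and no marker was at 0 in all libraries. Of the tested markers 36.8% were called and 26.3% were lower in D2, beside 36% and 13.8% of all tested symbols (edgeR). Adarb2, listed for interneurons, was at 1205 and 1247 CPM in B6 and 868 and 844 CPM in D2 (log2 fold change -0.52). P2ry12, listed for microglia, was between 256 and 317 CPM, and the CA3 markers Grik4 and Cpne4 were between 242 and 436 CPM. Of the inhibitory genes, Gad1 was between 29.3 and 34.1 CPM, while Gad2 was at 3.24 CPM or less and Slc32a1 at 2.24 CPM or less. Markers of other cell types that differed most were Trp73 (3.67) and Reln (-1.43) of Cajal-Retzius cells, Flt1 (2.14) of vascular cells, Mobp (-1.66) of oligodendrocytes and Vcan (-1.13) of their precursors, with the log2 fold change in parentheses and at most 12.6 CPM in any library. The 3 dentate granule markers (Prox1, C1ql2 and Dsp) were all lower in D2, with a summed level of 366 and 379 CPM in B6 and 281 and 287 CPM in D2. The 3 oligodendrocyte markers summed to 60.6 and 62.3 CPM in B6 and 33.0 and 27.8 CPM in D2. The part of these shifts in the results on the members was not tested.

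The sequences before the members' starts were searched for the letters of known control elements. RefSeq promoters (GRCm38.p6) were found for 7 of the 10 members and gave 14 windows of 250 bases before a start. Arc, Egr1 and Egr3 were not matched. The 5 core letters of the cAMP response element, TGACG on either strand, stood in 7 of the 14 windows and in at least 1 window of each of the 7 genes, against 17.8% of all 32841 promoters of that length. The full palindrome TGACGTCA and the CArG box were in none of the 14 windows (1.55% and 1.47% of all promoters), nor was AAAGGTCA, the site of Nr4a proteins (1.34%). TGANTCA, a pattern broader than the AP-1 sites TGACTCA and TGAGTCA of Fos and Jun proteins, was in 1 window of Bdnf (6.75% of all promoters). There it read TGAATCA, which is neither of these sites. GCGNGGGCG, the site of Egr proteins, was in 2 windows, at Fosb and Nr4a1 (4.70%). TATAAA was in 1 window, that of Fos (12.4%). Letters were searched on both strands. A motif farther than 250 bases before a start, or at Arc, Egr1 and Egr3, lay outside these windows, so its absence was not shown.

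Shown here are windows with the motif at Fos, the usual mark of activity, and at the 3 members whose RNA differed between strains, each on the strand of the gene (plus for Fos, Bdnf and Homer1, minus for Junb). Capitals mark TGACG or its complement CGTCA, and TATAAA in Fos.
Fos, chr12:85473640-85473889: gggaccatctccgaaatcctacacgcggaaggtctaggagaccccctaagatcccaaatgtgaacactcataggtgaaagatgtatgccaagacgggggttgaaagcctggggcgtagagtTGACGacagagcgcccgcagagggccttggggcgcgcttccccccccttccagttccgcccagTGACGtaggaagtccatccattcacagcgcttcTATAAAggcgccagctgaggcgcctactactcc
Junb, chr8:84978749-84978998: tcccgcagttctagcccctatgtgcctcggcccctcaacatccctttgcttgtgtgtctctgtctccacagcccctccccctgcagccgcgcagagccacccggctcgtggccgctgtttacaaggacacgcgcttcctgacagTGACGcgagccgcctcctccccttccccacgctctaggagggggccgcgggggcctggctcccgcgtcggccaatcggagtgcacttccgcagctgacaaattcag
Bdnf, chr2:109692186-109692435: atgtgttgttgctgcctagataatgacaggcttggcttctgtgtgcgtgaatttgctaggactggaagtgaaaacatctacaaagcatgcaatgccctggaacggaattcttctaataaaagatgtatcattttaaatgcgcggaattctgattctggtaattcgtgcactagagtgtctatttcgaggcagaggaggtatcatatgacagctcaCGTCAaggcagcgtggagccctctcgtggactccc
Homer1, chr13:93303507-93303756: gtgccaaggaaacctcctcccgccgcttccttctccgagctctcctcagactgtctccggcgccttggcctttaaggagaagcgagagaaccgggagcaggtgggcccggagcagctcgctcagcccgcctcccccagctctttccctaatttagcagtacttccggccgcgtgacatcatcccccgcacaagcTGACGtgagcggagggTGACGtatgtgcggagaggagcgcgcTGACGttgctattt
The Homer1 window held TGACG 3 times, at 56, 40 and 14 bases before the start, the Fos window held it at 129 and 66 bases, and Junb held it once at 106 bases. Bdnf has several promoters, and of its 7 windows only the one shown held the motif, 35 bases before that start. A match is a run of letters and was not tested as a binding site.

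Fos and Fosb encode partners of Jun proteins in AP-1, and Fos is the most used mark of recent firing. Fos (chr12:85473890-85477273 in GENCODE vM21, GRCm38) had 3 and 1 counts in B6 and 0 and 7 in D2, where 7 came from library 3. Fosb (chr7:19302696-19310051) had 1 and 3 counts in B6 and 5 and 8 in D2. Both genes were thus close to 0, and they did not pass the filter on low counts. Over the libraries of a strain, Fos was at 0.185 CPM in B6 (exact Poisson 95% interval 0.0505 to 0.475) and 0.412 CPM in D2 (0.166 to 0.850), intervals that overlap and cover counting error only. Fosb was at 0.185 CPM in B6 (0.0505 to 0.475) and 0.766 CPM in D2 (0.408 to 1.31), and these intervals also overlap. When every symbol with at least 1 count was tested, the adjusted p was 0.0528 for Fosb and 0.482 for Fos (edgeR), so neither passed. The libraries of the strains did not overlap in Fosb, at these few counts, and nor did they in 66.7% of all tested symbols. The log2 fold change of Fosb in that fit was 1.961 (unadjusted p = 0.0144, edgeR), beside 2.07 with DESeq2 (adjusted p = 0.388). That of Fos was 1.09.

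Junb, the third AP-1 gene, encodes a Jun protein that pairs with Fos proteins. Junb (chr8:84974484-84978718) was at 11.0 and 11.0 CPM in B6 and at 14.7 and 18.7 CPM in D2. The strains did not overlap, and the D2 libraries were farther apart than those of B6. The log2 fold change was 0.60 (standard error 0.16, adjusted p = 0.00785, edgeR), or 1.52-fold. The call rested on D2 library 3: without it the log2 fold change was 0.43 and the adjusted p 0.105 (edgeR), and with DESeq2 the adjusted p was 0.101. Prdx2 lies on the opposite strand over part of Junb, and the sources used here do not say whether counting used strand.

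The Egr genes encode zinc finger factors that bind GC-rich sites. Egr1 (chr18:34859823-34864984) was at 1.07 and 2.03 CPM in B6 and at 2.23 and 2.49 CPM in D2. Egr3 (chr14:70077203-70082614) was at 5.84 and 5.04 CPM in B6 and at 6.48 and 8.72 CPM in D2. In both genes the D2 libraries lay above the B6 libraries, by a small gap next to the spread within a strain. The log2 fold change was 0.58 for Egr1 (standard error 0.36, adjusted p = 0.233, edgeR) and 0.48 for Egr3 (standard error 0.21, adjusted p = 0.102, edgeR), and neither passed. Both values depended on single libraries. Egr1 was at 0.21 without B6 library 2 and 1.13 without B6 library 3, and did not pass in either case (adjusted p = 0.757 and 0.0922, edgeR). Egr3 passed without D2 library 2 (0.68, adjusted p = 0.0398, edgeR), and fell to 0.26 without D2 library 3 (adjusted p = 0.537) and 0.37 without B6 library 3 (adjusted p = 0.287, edgeR).

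Nr4a1 encodes an orphan nuclear receptor, and Npas4 a neuron-specific factor induced by calcium entry that regulates inhibitory synapses. Nr4a1 (chr15:101254269-101274795) was at 3.11 and 2.21 CPM in B6 and 2.91 and 4.86 CPM in D2, so the strains overlapped. Npas4 (chr19:4984355-4990316) was at 1.36 and 1.42 CPM in B6 and 1.56 and 1.99 CPM in D2, from 14 and 16 counts in the libraries of each strain. Neither passed the test, with log2 fold changes of 0.54 for Nr4a1 (standard error 0.31, adjusted p = 0.207, edgeR) and 0.34 for Npas4 (standard error 0.34, adjusted p = 0.500, edgeR). The 95% interval of the Npas4 difference ran from -0.33 to 1.02, which leaves room for a change in either direction. The Npas4 difference was 0.17 without D2 library 3 and 0.52 without D2 library 2. That of Nr4a1 was 0.14 without D2 library 3, 0.88 without D2 library 2 and 0.30 without B6 library 3.

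Arc, Bdnf and Homer1 encode effectors rather than transcription factors. Arc is a postsynaptic protein that drives removal of AMPA receptors, and its mRNA travels into dendrites, so nuclei hold only a part of it. Arc (chr15:74669083-74672570) was at 0.876 and 1.33 CPM in B6 and at 1.12 and 2.24 CPM in D2. The strains overlapped, and Arc did not pass (log2 fold change 0.57, standard error 0.42, adjusted p = 0.326, edgeR). The size rested on single libraries, since the log2 fold change was 0.011 without D2 library 3 and 1.01 without D2 library 2, and 0.31 without B6 library 2 and 0.91 without B6 library 3.

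Bdnf, a secreted neurotrophin that strengthens synapses, had the smallest adjusted p of the members. Bdnf (chr2:109674700-109727007) was at 40.8 and 40.5 CPM in B6 and at 62.5 and 64.4 CPM in D2. The D2 libraries lay far above the B6 libraries next to a spread of 0.191 CPM (SD, n = 2) in B6 and 1.38 CPM in D2. The log2 fold change was 0.64 (standard error 0.09, adjusted p = 3.35e-05, edgeR), or 1.56-fold, and per 100 nuclei there were 31.0 counts in B6 and 47.3 in D2. Bdnf passed under all 10 alternatives tried, with log2 fold changes from 0.62 to 0.67 and an adjusted p of at most 0.00033. The counts sum over all Bdnf promoters, and the antisense gene Gm45346 overlaps it.

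Homer1 encodes a postsynaptic scaffold, and activity switches the gene to a short form, Homer1a, which counts per gene cannot separate from the long forms. Homer1 (chr13:93299635-93405129) was at 75.9 and 70.7 CPM in B6 and at 62.3 and 60.3 CPM in D2. It was the 1 member that was lower in D2 in both libraries, and its log2 fold change was -0.26 (standard error 0.08, adjusted p = 0.0281, edgeR). Gm47075 and Gm47088, a pair of symbols that lie within Homer1 on its strand, had 0 counts in both B6 libraries, and in D2 they had 2 and 2 (Gm47075) and 26 and 18 (Gm47088). With their counts added to Homer1, the log2 fold change was -0.19 and the adjusted p 0.0927 (edgeR), and with DESeq2 on Homer1 alone the adjusted p was 0.132. The call was also lost when any 1 of B6 library 2, D2 library 2 and D2 library 3 was left out (adjusted p from 0.0843 to 0.169, edgeR).

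**Figure D1:**
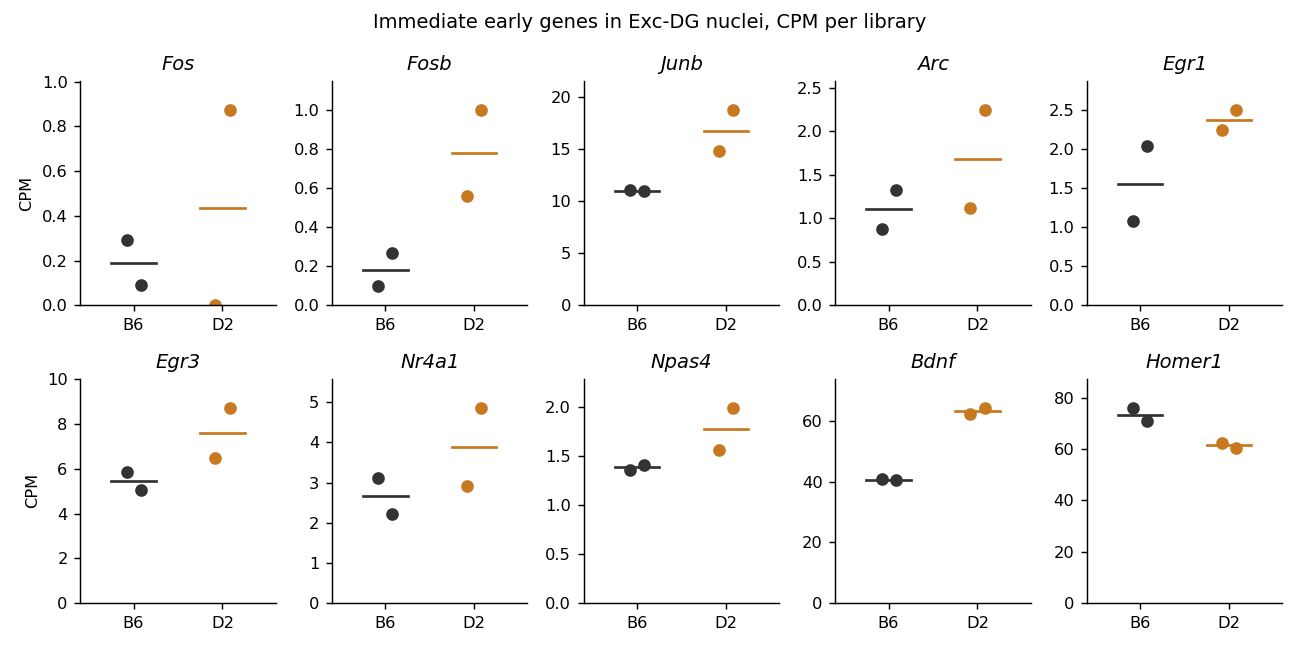
CPM (vertical axes, each from 0) of the 10 members in each Exc-DG library of B6 and D2. Points are libraries and lines are means of 2 libraries. The Bdnf libraries of D2 (62.5 and 64.4) sit above those of B6 (40.8 and 40.5), and in Fos the right-hand D2 point rests on 7 counts.

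Of the 8 members tested, 2 were higher in D2 (Junb and Bdnf), 1 was lower (Homer1) and 5 did not pass, beside 36% of all tested symbols that passed in either direction (22.2% higher and 13.8% lower in D2, edgeR). The share of members called was thus near that of all symbols. The strains did not overlap in 6 of the 8 members, or 75% of them, beside 66.7% of all tested symbols. The log2 fold change was above 0 in 7 of the 8, beside 56.3% of all, and its median was 0.55, beside 0.056 over all. Of the tested symbols, 1856 had counts in D2 only and 108 in B6 only. Of the 15759 seen in both strains, as all 8 tested members were, 28% were called (13.2% higher and 14.8% lower in D2, edgeR). In that set 51.5% of log2 fold changes lay above 0 and the median was 0.012. Reads of the strains were mapped to different reference sequences, and the part of this in the results was not tested.

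D2 library 3 held the highest level of the 4 libraries in 7 of the 8 tested members, beside 31.1% of all tested symbols, and it lay above D2 library 2 in 7 of 8 (49.2% of all). The exception was Homer1. Without D2 library 3, the median log2 fold change of the members was 0.21 (all tested symbols 0.0465), 7 of 8 stayed above 0 and Bdnf alone passed. Without D2 library 2 the median was 0.68. The size of the member differences thus depended on this library, which held the fewest nuclei (1043). What sets it apart was not tested.

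**Figure D2:**
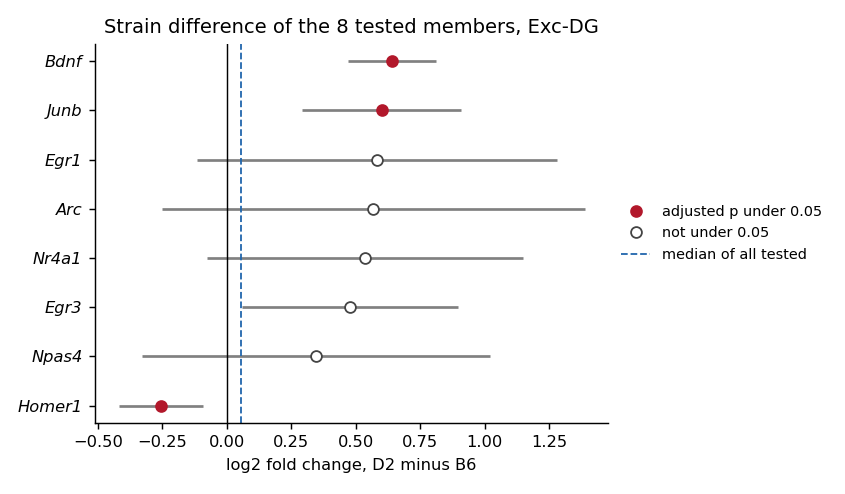
Log2 fold change of D2 minus B6 (horizontal axis) for the 8 tested members, with 95% intervals from the standard errors. The dashed line is the median of all 17723 tested symbols (0.056). Bdnf, Junb and Homer1 passed at adjusted p under 0.05, and Homer1 alone lies below 0.

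Further genes of the activity response were taken from lists by function. Among 26 rapid-response relatives, which include other AP-1 and Nr4a genes, 14 passed the filter on low counts and were tested. Of these, 4 were higher in D2, or 28.6%, beside 22.2% of all tested symbols and 13.2% of those seen in both strains (edgeR). None (0) were lower, beside 13.8% of all tested symbols (0 also at unadjusted p under 0.05, edgeR, and 0 with DESeq2). The median log2 fold change of the 14 was 0.28. That median depended on the filter. Over all 26, with every symbol of at least 1 count tested, it was 0.092 (0.16 over all symbols), and 57.7% lay above 0 (60.1% of all). With DESeq2 over 25 it was 0.111 (0.095 over all), and 60% lay above 0 (57.9% of all). Jun, which encodes the main partner of Fos, was at 42.0 and 43.0 CPM in B6 and 59.4 and 74.6 CPM in D2 (log2 fold change 0.65, adjusted p = 0.000200, edgeR). Jund, another Jun family gene, was higher by 0.53 on the log2 scale (adjusted p = 0.00631, edgeR; 0.118 with DESeq2). The other 2 were Btg2, a regulator of mRNA decay (1.02, adjusted p = 3.57e-05, edgeR), and Ier5 (0.99, adjusted p = 0.00126, edgeR). Without D2 library 3 the list still had 4 calls, but its median fell to 0.066 over 16 tested genes.

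The next list was named delayed activity-induced genes. Whether its genes need the first factors to be made was not tested. Of 18 listed, 17 were tested, 7 were higher and 2 were lower in D2, with a median log2 fold change of 0.072. The shares were 41.2% higher and 11.8% lower, beside 22.2% and 13.8% of all tested symbols (edgeR). Of symbols seen in both strains, 13.2% were higher and 14.8% lower. Sorcs3, a sorting receptor gene, was at 68.6 and 60.0 CPM in B6 and 128 and 116 CPM in D2 (log2 fold change 0.93, adjusted p = 1.07e-06, edgeR). Scg2, which encodes a protein of secretory granules, was at 54.3 and 54.0 CPM in B6 and 84.7 and 106 CPM in D2 (0.81, adjusted p = 1.50e-05, edgeR). Nptx2, which encodes a pentraxin that gathers AMPA receptors, was at 1.36 and 0.531 CPM in B6 and 3.58 and 4.61 CPM in D2 (2.12, adjusted p = 0.000446, edgeR). It passed in each fit that left out a library, with 2.90 without B6 library 2 and 1.57 without B6 library 3. Ptgs2, the gene of the inducible cyclooxygenase, went the other way, from 3.89 and 3.36 CPM in B6 to 0.335 and 0.374 CPM in D2, 3 counts in each library (-3.31, adjusted p = 1.56e-05, edgeR). Without D2 library 3, and also with DESeq2, 4 of the list were higher and 2 lower.

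Upstream regulators carry the signal to the members' promoters. Of 19, all tested, 2 were higher in D2 and 5 were lower (median log2 fold change -0.034), and with DESeq2 1 was higher and 2 were lower. In edgeR the shares were 10.5% higher and 26.3% lower, beside 22.2% and 13.8% of all tested symbols. Mapk3, a kinase gene, was higher (0.58, adjusted p = 0.00291, edgeR), though not with DESeq2 (adjusted p = 0.0662). Mef2a, a calcium-responsive factor gene, was lower in D2 (-0.37, adjusted p = 0.000618, edgeR), and the kinase gene Rps6ka2 was lower as well (-0.44, adjusted p = 0.00199, edgeR).

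Partner proteins of Bdnf, Homer1 and Arc gave 11 tested genes of 12, with 1 higher and 3 lower in D2 (median log2 fold change -0.16). The shares were 9.09% higher and 27.3% lower, beside 22.2% and 13.8% of all tested symbols (edgeR). Ntrk2, which encodes the Bdnf receptor TrkB, was at 286 and 285 CPM in B6 and 254 and 238 CPM in D2 (-0.21, adjusted p = 0.0251, edgeR). The scaffold genes Shank1 (-0.40, adjusted p = 0.00146, edgeR) and Shank2 (-0.24, adjusted p = 0.0278, edgeR), whose products bind Homer proteins, were lower. Without D2 library 3 the adjusted p was 0.2 for Ntrk2 and 0.321 for Shank2 (edgeR), and neither passed. Dnm3, a dynamin gene, was higher (0.55, adjusted p = 2.92e-05, edgeR). Of 12 heat shock and stress genes, which respond to cell stress, 8 were tested, 0 were higher in D2 (0 also at unadjusted p under 0.05, edgeR, and 0 with DESeq2) and 2 were lower, Hspa8 (-1.19, adjusted p = 4.18e-06, edgeR) and Dnaja1 (-0.28, adjusted p = 0.0414, edgeR). The call of Dnaja1 was lost without B6 library 3 (adjusted p = 0.248), without D2 library 2 (adjusted p = 0.305, edgeR) and with DESeq2 (adjusted p = 0.162). Of the tested heat shock and stress genes 0% were higher and 25% lower, beside 22.2% and 13.8% of all tested symbols (edgeR). Shares called ranged from 25% to 52.9% over the 5 lists, around the 36% of all symbols and the 28% of those seen in both strains.

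**Figure D3:**
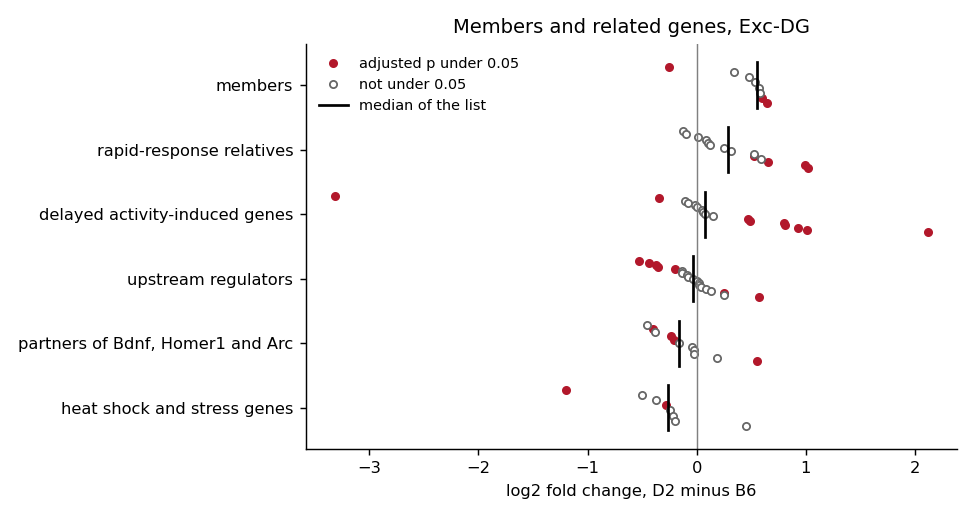
Log2 fold change of D2 minus B6 (horizontal axis) of each tested gene of the members and the 5 lists. Filled points passed at adjusted p under 0.05 and bars are list medians, which run from 0.55 for the members to -0.26 for heat shock and stress genes.

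Chromatin at the members was read from the snATAC-seq counts of Exc-DG, where the libraries held 24157723 and 21463891 counts in B6 and 18111758 and 27815541 in D2 over 297387 tested peaks. All 10 members had a peak within 500 bases of an annotated start, 19 such promoter peaks in all, 6 of them at Bdnf. Fos, close to 0 in RNA, had an open promoter, at 24.4 and 24.7 CPM in B6 and 26.7 and 24.8 CPM in D2. The Fosb promoter was at 20.1 and 20.5 CPM in B6 and 21.6 and 19.2 CPM in D2, and the strains overlapped. The promoters were thus accessible in both strains while the RNA of both genes was close to 0.

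Of the 19 promoter peaks, 1 passed the strain test, or 5.26%, beside 7.32% of the 13820 peaks at the starts of protein-coding genes (5.32% higher and 2% lower in D2, edgeR). That peak was at Egr1 (chr18:34859637-34861794), at 83.7 and 83.5 CPM in B6 and 93.3 and 93.9 CPM in D2. Its log2 fold change was 0.16 (standard error 0.05, adjusted p = 0.0492, edgeR), and the call was lost under 6 of 8 alternatives and kept without D2 library 2 (adjusted p = 0.0197, edgeR). The Arc promoter was at 26.9 and 27.0 CPM in B6 and 30.6 and 30.6 CPM in D2 (log2 fold change 0.18, adjusted p = 0.146, edgeR), and did not pass. The Egr3 promoter was at 54.9 and 56.2 CPM in B6 and 61.4 and 56.4 CPM in D2. The stronger Nr4a1 peak was at 19.1 and 17.3 CPM in B6 against 18.4 and 19.5 CPM in D2, and that of Npas4 was at 24.1 and 23.3 CPM against 24.8 and 22.9 CPM. Both overlapped between strains. The strains did not overlap at 7 of the 19, beside 44.2% of all peaks. All peaks are an unlike set, with a median level of 1.13 CPM beside 20.5 CPM for the 19. This share was not taken over promoter peaks alone. All 19 log2 fold changes lay between -0.12 and 0.18.

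The promoters of the members whose RNA differed did not pass. The stronger Junb peak (chr8:84977277-84978995) was at 41.1 and 45.0 CPM in B6 and 45.6 and 43.5 CPM in D2, and the strains overlapped. Its log2 fold change of 0.05 had a 95% interval from -0.08 to 0.17. The strongest Bdnf promoter peak (chr2:109676715-109678615) was at 42.2 and 44.4 CPM in B6 and 45.1 and 49.8 CPM in D2 (log2 fold change 0.14, adjusted p = 0.236, edgeR), and it passed only when D2 library 2 was left out (0.21, adjusted p = 0.0284, edgeR). The 95% interval of its difference ran from 0.01 to 0.27. The 0.64 of the Bdnf RNA is a sum over all promoters from other nuclei. Accessibility and RNA are unlike measures, so the sizes are not compared. The Bdnf peak over the window shown above was at 10.2 and 10.1 CPM in B6 and 10.6 and 12.1 CPM in D2 (0.18, adjusted p = 0.434, edgeR). The Homer1 peak over the start shown above was at 59.9 and 60.0 CPM in B6 and 64.9 and 62.9 CPM in D2 (log2 fold change 0.09, adjusted p = 0.496, edgeR), while its RNA was lower in D2.

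**Figure D4:**
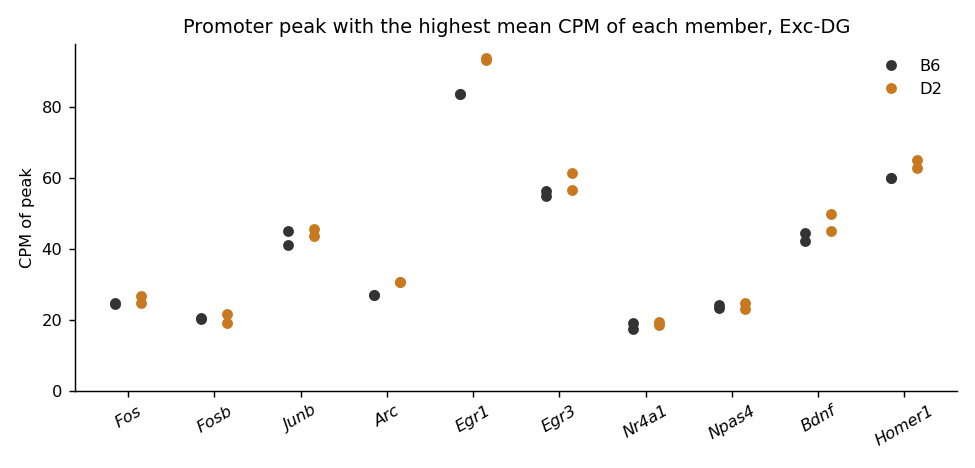
CPM (vertical axis, from 0) of the promoter peak with the highest mean at each member, in each Exc-DG snATAC-seq library. Points are libraries. Egr1, at 83.5 to 93.9 CPM, was the 1 promoter peak that passed the strain test, and libraries of the strains lie close together at the others.

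Within 50 kb of their starts the members had 192 peaks, of which 6 were higher and 2 lower in D2, together 4.17%, beside 5.97% of all peaks (3.39% higher and 2.58% lower in D2, edgeR). Beside the Egr1 promoter, 7 distal peaks passed. Around Fos there were 3 of them. The peak 18.5 kb upstream (chr12:85454657-85456099), in intergenic sequence with Fos as the nearest protein-coding start, was at 37.9 and 35.9 CPM in B6 and 47.5 and 42.9 CPM in D2 (log2 fold change 0.28, standard error 0.07, adjusted p = 0.000885, edgeR). Those 5.93 kb upstream (0.32, adjusted p = 0.0499, edgeR) and 44.6 kb downstream (0.93, adjusted p = 0.0328, edgeR) were less accessible, and the last had 21, 21, 24 and 55 counts in the libraries. The peak 18.5 kb upstream did not pass without B6 library 3 (adjusted p = 0.121, edgeR), and the other 2 did not pass when any 1 of B6 library 2, B6 library 3 and D2 library 3 was left out (adjusted p from 0.0889 to 0.594, edgeR).

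The middle 200 bases of the Fos peak 18.5 kb upstream are shown because this peak held the core of the cAMP response element 3 times and had the smallest adjusted p at Fos. They are on the plus strand of GRCm38, which is the B6 sequence, and capitals mark TGACG or CGTCA.
Fos upstream peak, chr12:85455279-85455478: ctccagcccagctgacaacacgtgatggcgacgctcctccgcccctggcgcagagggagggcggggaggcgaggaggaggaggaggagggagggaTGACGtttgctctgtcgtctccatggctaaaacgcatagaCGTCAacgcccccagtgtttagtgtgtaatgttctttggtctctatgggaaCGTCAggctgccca
TGACG was in the middle 200 bases of 19 of the 142 distal member peaks that lie off any protein-coding start, or 13.4%, beside 7.43% of 286939 such peaks. The AP-1-like pattern TGANTCA, with any letter in the middle, was in 12 of them, or 8.45%, beside 10.5% of all. These shares were not matched for the level of the peaks. The 163 distal member peaks had a median level of 3.08 CPM, beside 1.13 CPM over all peaks. None of the other 6 distal peaks that passed held any of the searched motifs in their middle 200 bases.

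The other distal peaks that passed lay at Egr3, Arc, Fosb and Bdnf. The Egr3 peak, 17.4 kb downstream of the start (chr14:70095657-70096630) and nearer to the start of Bin3, was at 8.51 and 9.04 CPM in B6 and 11.9 and 12.5 CPM in D2 (log2 fold change 0.48, adjusted p = 0.000661, edgeR). The Arc peak, 6.55 kb upstream (chr15:74678776-74679458), was at 10.0 and 10.8 CPM in B6 and 12.3 and 14.5 CPM in D2 (0.38, adjusted p = 0.0081, edgeR). Lower in D2 was a peak 27.1 kb upstream of Fosb (chr7:19336926-19337450), over an exon of the noncoding gene Gm44698 and nearer to Ercc1, at 9.96 and 9.45 CPM in B6 and 6.67 and 7.26 CPM in D2 (-0.47, adjusted p = 0.00489, edgeR). Also lower was an intergenic peak 46.9 kb downstream of a Bdnf start (chr2:109755118-109757401), at 11.3 and 11.6 CPM in B6 and 8.25 and 8.86 CPM in D2 (-0.41, adjusted p = 0.00806, edgeR). At each of these 4 peaks both libraries of a strain lay on one side of the other strain. With DESeq2, 0 of the 8 member peaks passed (lowest adjusted p 0.092), though 6 were at unadjusted p under 0.05, and none of the 8 passed in each of the fits that left out a library. Without B6 library 2 the Egr3, Arc, Fosb and Bdnf peaks did not pass (adjusted p from 0.0569 to 0.210, edgeR). Nor did the Arc peak pass without D2 library 3 (adjusted p = 0.440), the Fosb peak without D2 library 2 (adjusted p = 0.0621) or the Bdnf peak without B6 library 3 (adjusted p = 0.0924) or D2 library 2 (adjusted p = 0.0729, edgeR).

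**Figure D5:**
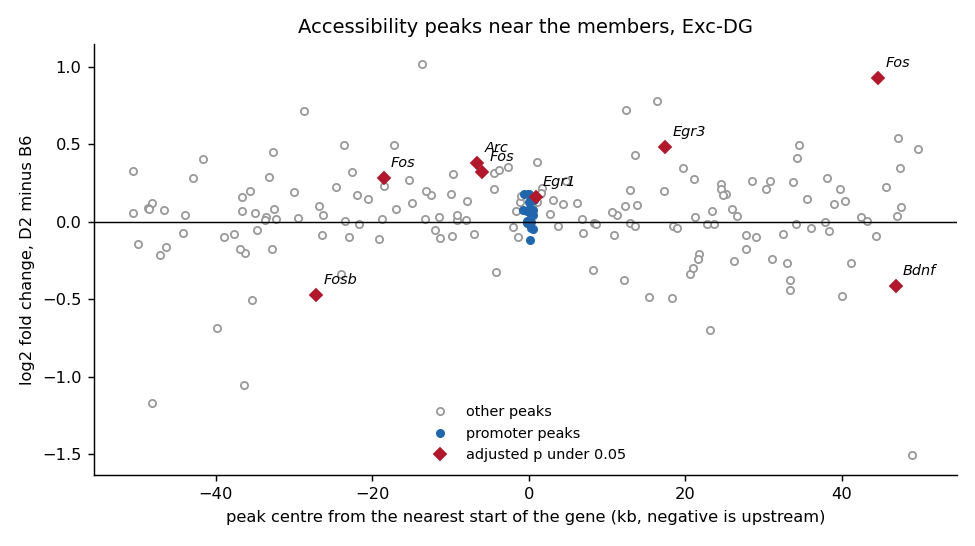
Log2 fold change of D2 minus B6 (vertical axis) of 192 snATAC-seq peaks against the distance of the peak centre from the nearest start of the member (kb, negative is upstream). Diamonds passed at adjusted p under 0.05. Promoter peaks lie between -0.12 and 0.18, and distal peaks spread more widely.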

How the data were processed

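Per the labels and the study's methods, the authors used Cell Ranger 6.0.2, keeping intronic reads, for RNA and Cell Ranger ATAC 2.0.0 for open chromatin. B6 reads were mapped to mm10, and D2 reads to mm10 with D2 alleles put in at SNPs. The deposited count tables hold raw counts, without normalization, summed by the authors per library and cell type after nuclei were filtered and doublets removed, and snATAC-seq peaks were called per sample and merged. The deposited numbers of nuclei were used as the authors' values. Strand use in counting is not given in the sources used here.

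Of each table the 4 Exc-DG columns were used, as replicates of a strain. For other cell types, 64 RNA and 56 ATAC columns, and the 16 methylation samples were not used here, so the planned comparisons across cell types, in summed classes and with other cell types, and the naming of genes with a like pattern over cell types, were not run.

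edgeR 4.0.16 (R 4.3.3; TMM, quasi-likelihood test, D2 minus B6, no covariates, Benjamini-Hochberg over all features) was the main test. Symbols were kept by filterByExpr and peaks by a minimum of 10 counts in all. The threshold was an adjusted p of 0.05. The steps were tested on simulated data with 200 changed features. With 2 against 2 libraries the smallest p of an exact permutation test is 0.33. The p-values are therefore those of the fits, which set the strain difference against the modelled spread between libraries. Alternatives were DESeq2 1.42.0, RLE, other filters, library totals, the library number as a block and each library left out. Library totals for RNA and the summed Homer1 counts were chosen after seeing the data.

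Members, lists and markers were chosen with earlier results of these data known. All members were described. From each list at most 4 genes were named, those with the smallest adjusted p, except 1 that is not reported here. Peaks named are promoter peaks and those within 50 kb at an adjusted p under 0.05. Genes came from GENCODE vM21 and promoters from RefSeq. The Npas4 window lies in a GENCODE exon and is not shown.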

Additional observations from a re-analysis of the deposited data

How the results depend on the processing

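With DESeq2, 1 of the members passed in place of 3 (Bdnf), 9 related genes of the 5 lists were higher in D2 in place of 14, 0 promoter peaks in place of 1 and 0 member peaks within 50 kb in place of 8 passed (1 and 6 at unadjusted p under 0.05), and 4849 of all peaks were called in place of 17758. Over all symbols DESeq2 called 4835 of 24075, or 20.1%, beside 36% in edgeR. A refit on the 15759 symbols with counts in both strains called 3997, where the fit on all 17723 called 4418 of the same symbols and 6382 in all. No promoter peak (0) was called with peaks of at least 50 counts or with library totals, and with totals 5 member peaks passed. Leaving out 1 library gave 1 to 3 members called (1 without D2 library 3), 0 to 2 promoter peaks, 1 to 7 member peaks (1 without B6 library 2) and 10688 to 13588 peaks in all. The number of related genes lower in D2 stayed within 1.5 times its value. No alternative reversed the sign of a tested member or of a named list gene. The library numbers do not pair the samples by any label, and the correlation of same-numbered deviations was -0.055 for RNA and 0.05 for ATAC. With the replicate block 3 members, 15 related genes higher, 13 lower, 1 promoter peak and 7 member peaks were called, without the Fos peaks 5.93 kb upstream (adjusted p = 0.0517) and 44.6 kb downstream (adjusted p = 0.0532, edgeR).

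With 2 libraries a strain, 1 library can decide a call. Depth limits Fos, Fosb, Arc, Egr1 and Npas4, each below 3 CPM in all libraries. Counts per gene do not separate Homer1a or the Bdnf promoters. Comparisons in other cell types and summed classes were not run.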
